A study of Homo sapiens with 12 samples.

Results

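The enzymes that extend or sialylate the Tn antigen were followed in prostate cancer cells with lowered or raised GALNT7. The set holds 10 of the 59424 genes measured, namely C1GALT1, C1GALT1C1, GCNT1, GCNT3, B3GNT3, ST3GAL1, ST3GAL2, ST6GALNAC1, ST6GALNAC2 and ST6GALNAC4. They were chosen by their known roles, with earlier results of these data known, and all 10 were found in the files by Ensembl identifier. RNA sequencing was carried out on 2 established prostate cancer cell lines, with 3 biological replicates in each of 4 groups. CWR22RV1 cells carried either a control hairpin (shControl) or a short hairpin RNA that lowers GALNT7 (GALNT7 KD), both lentiviral, and DU145 cells carried an overexpression control (OE control) or GALNT7 (GALNT7 OE). All of these were stable lines made by lentiviral transduction, so every group, controls included, carries an integrated vector. Each direction of change in GALNT7 was therefore measured in 1 cell line only, and the direction and the cell line cannot be told apart. Whether the replicates of a group came from separate transductions is not given in the sources used here. The spread between replicates may therefore be that between cultures of the same stable line.

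O-linked glycosylation of the mucin type starts in the Golgi when a GALNT enzyme, such as GALNT7, places N-acetylgalactosamine (GalNAc) on a serine or threonine, which gives the Tn antigen. C1GALT1 adds galactose to make the core 1 structure, also called the T antigen, and needs its chaperone C1GALT1C1 (COSMC) to fold. GCNT1 and GCNT3 add a branch that turns core 1 into core 2, B3GNT3 extends core 1 with N-acetylglucosamine, and the sialyltransferases cap these structures: ST3GAL1 and ST3GAL2 cap the galactose of core 1, ST6GALNAC1 can sialylate Tn itself to make sialyl-Tn, and ST6GALNAC2 and ST6GALNAC4 act on core 1 structures. In cancer, short glycans such as Tn and sialyl-Tn are often left exposed.

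The 10 genes lie on 8 chromosomes, none of them on chromosome 12, whose 922 tested genes were lower as a whole in GALNT7 KD cells (their median log2 fold change minus that of all genes was -0.27). RefSeq promoter windows, taken as the 250 bases before a start site on GRCh38.p14, were matched for 6 of the 10 genes. The windows of C1GALT1, which was called in knockdown, and of ST6GALNAC4, the highest of the 10 per kilobase (kb) of exon in DU145 cells, are printed. Each is the only window of its gene and overlaps none of its exons. GCNT1, also called in knockdown, had 4 windows, and they are not printed. Only that at chr9:76458932-76459181 overlaps its exons. Capitals mark the GC box (GGGCGG) and the CCAAT box (CCAAT), searched on both strands. The C1GALT1 window is chr7:7182294-7182543 on the plus strand and lies within the annotated gene, and the ST6GALNAC4 window is chr9:127917042-127917291 on the minus strand, just before the gene.
C1GALT1: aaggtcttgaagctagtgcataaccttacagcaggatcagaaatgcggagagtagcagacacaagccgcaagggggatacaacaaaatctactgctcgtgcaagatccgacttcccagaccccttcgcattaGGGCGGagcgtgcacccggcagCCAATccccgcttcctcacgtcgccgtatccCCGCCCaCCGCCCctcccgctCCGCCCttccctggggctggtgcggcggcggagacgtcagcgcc
ST6GALNAC4: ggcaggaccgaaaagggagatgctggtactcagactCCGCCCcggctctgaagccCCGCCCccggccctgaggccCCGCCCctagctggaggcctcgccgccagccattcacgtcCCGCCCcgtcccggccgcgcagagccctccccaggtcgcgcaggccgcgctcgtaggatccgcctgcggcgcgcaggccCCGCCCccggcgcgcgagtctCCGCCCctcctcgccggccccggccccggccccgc
The C1GALT1 window held 4 GC boxes and 1 CCAAT box, with 21 CpG dinucleotides and a GC content of 62.4%. The ST6GALNAC4 window held 6 GC boxes and no CCAAT box, with 34 CpG and a GC content of 79.2%. Among 35116 such windows, 42.6% held a GC box and 32% a CCAAT box, and the median was 11 CpG. The TATA box (TATAAA), found in 10.7% of windows, was in neither. The windows of the other matched genes ranged more widely: that of C1GALT1C1 held 34 CpG, that of B3GNT3 held 16, that of GCNT3 held 2 with a GC content of 40.4%, and the 4 windows of GCNT1 held 3 to 23. These letters describe the windows and say nothing of which factors bind there or which start site these cells use.

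The labels were checked on GALNT7 itself. All values below are normalised counts, read numbers per gene scaled by 1 size factor for each library, and they are compared only within a cell line because the lines were scaled separately. In CWR22RV1 cells GALNT7 stood at 862, 1042 and 1093 with shControl and at 481, 501 and 400 in GALNT7 KD, a log2 fold change of -1.11. In DU145 cells it stood at 1051, 928 and 913 in the OE control and at 1988, 2221 and 2334 in GALNT7 OE, a log2 fold change of 1.18. Both moved in the labelled direction without overlap. Log2 fold changes here are differences of mean log2(normalised count + 1), tested with limma over all genes that averaged 5 or more normalised counts. An adjusted p is Benjamini-Hochberg adjusted over all those genes, and a gene is called when it is under 0.05.

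After GALNT7 knockdown in CWR22RV1 cells, the core 1 synthase C1GALT1 and the sialyltransferase ST3GAL1 rose and the core 2 branching enzyme GCNT1 fell. Of the 10 enzymes 7 had enough reads to be tested, of which 2 were called higher, 1 lower and 4 did not pass. Over all 17906 genes tested, 9.06% were called, 5.28% higher and 3.79% lower. The median log2 fold change of the 7 enzymes was 0.51, against -0.0063 over all genes tested. GCNT3, B3GNT3 and ST6GALNAC1 were under the filter and were not tested. After GALNT7 overexpression in DU145 cells, 1 of the 9 enzymes tested, B3GNT3, was called lower, none was called higher and 8 did not pass, where 43.5% of all 18705 genes tested were called, 22.9% higher and 20.5% lower (4290 and 3842 genes, which became 3380 and 4737 when libraries were rescaled to a common 75th percentile). Their median log2 fold change was -0.032, against -0.011 over all genes. Of the 7 enzymes tested in both cell lines, 0 were called in both, whereas 5.48% of all 16124 genes tested in both were.

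**Figure D1:**
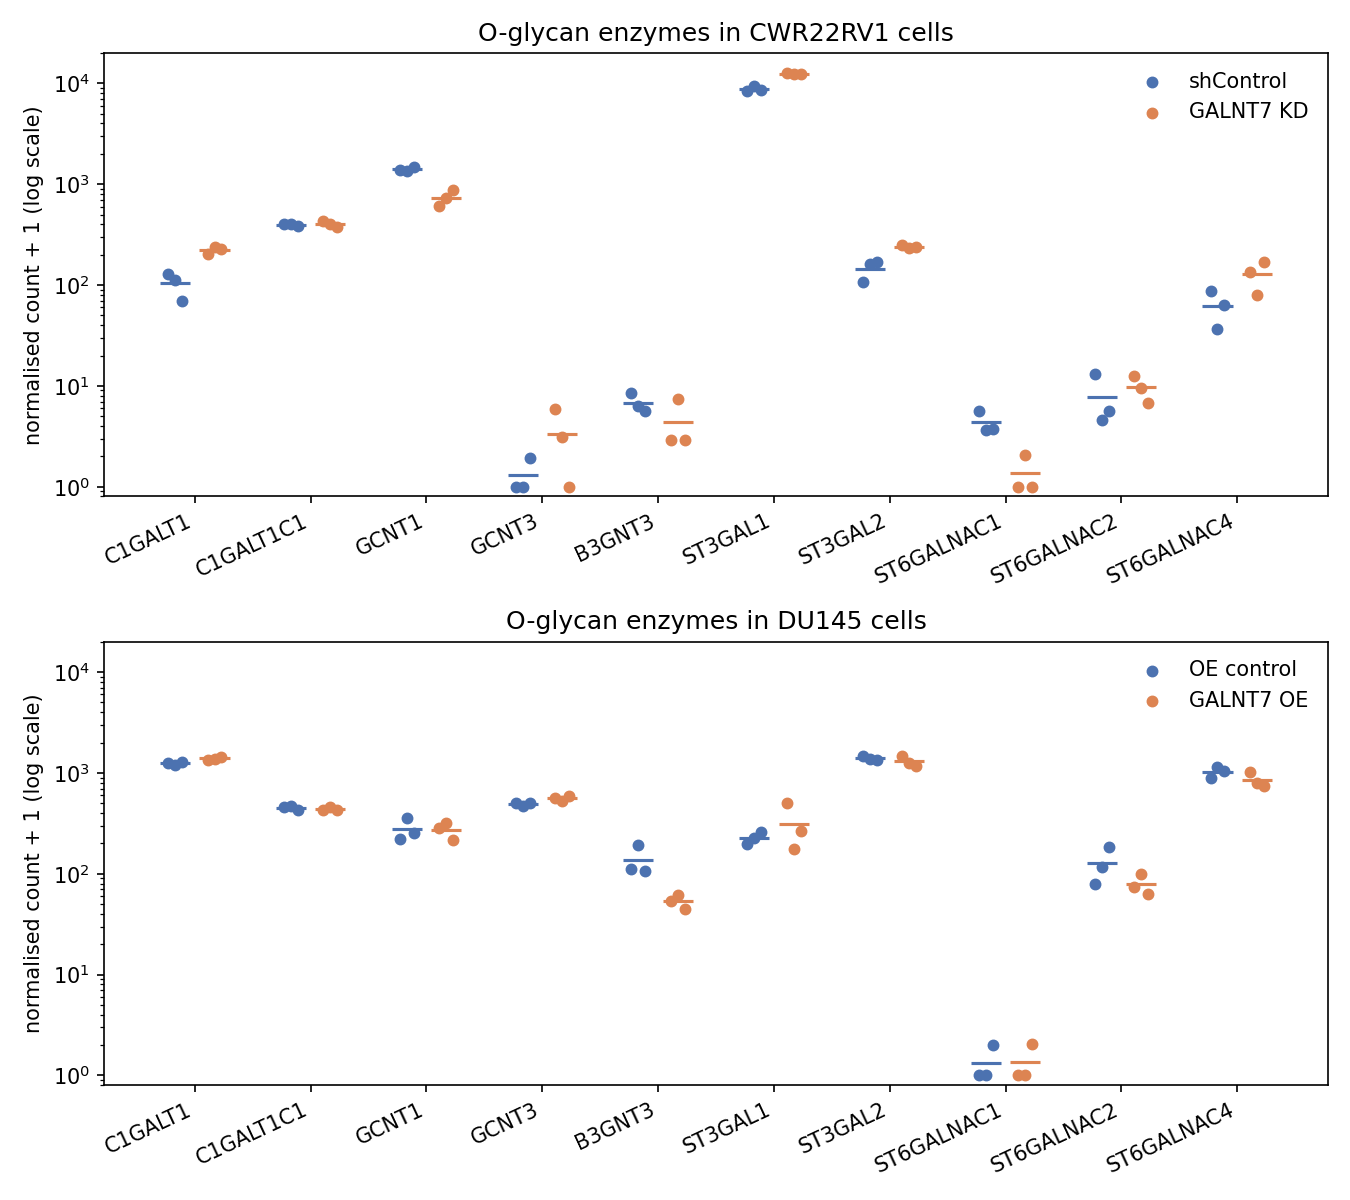
Normalised count + 1 of the 10 enzymes in each library, on a log axis, for CWR22RV1 (top) and DU145 cells (bottom). Points are libraries (n = 3 per group) and bars are group means. In CWR22RV1 cells the shControl libraries lie at 1363 to 1495 for GCNT1 and the knockdown libraries at 600.4 to 873, and in DU145 cells B3GNT3 lies at 106 to 191 in the OE control and 44.1 to 61.0 in GALNT7 OE.

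C1GALT1 (ENSG00000106392, chr7:7156934-7248651, plus strand, GRCh38) had 127, 112 and 68.7 normalised counts in the shControl libraries and 201, 238 and 225 in the GALNT7 KD libraries. Every knockdown library lay above every control library. The means were 103 ± 30.3 (SD, n = 3) and 221 ± 18.7 (SD, n = 3), a ratio of 2.16. The log2 fold change was 1.15 (95% interval 0.58 to 1.71) and passed in limma with an adjusted p of 0.032. The call is not firm, since it was lost in 7 of 16 alternative analyses, where the adjusted p reached 0.088. The libraries whose removal took it over the threshold were shControl replicates 1 and 2 and GALNT7 KD replicates 1, 2 and 3, with log2 fold changes of 1.32, 1.23, 1.21, 1.09 and 1.13 and limma adjusted p of 0.0502, 0.066, 0.085, 0.088 and 0.075. In DU145 cells C1GALT1 had 1248, 1198 and 1280 normalised counts in the OE control and 1356, 1382 and 1436 in GALNT7 OE. Here too every altered library lay above every control, but the log2 fold change was 0.16 (95% interval 0.028 to 0.30) and did not pass (limma adjusted p = 0.055).

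C1GALT1C1 (ENSG00000171155, chrX:120625793-120630150, minus strand), the chaperone without which C1GALT1 is not made in active form, stayed near its control level in both lines. It had 400.4, 402 and 388 normalised counts in shControl and 430.2, 403 and 374 in GALNT7 KD, with overlapping groups and a log2 fold change of 0.017 (95% interval -0.20 to 0.23, limma adjusted p = 0.93). The DU145 libraries had 453, 475 and 426 in the OE control and 432, 459 and 432 in GALNT7 OE, a log2 fold change of -0.032 (95% interval -0.22 to 0.16, limma adjusted p = 0.77). Within each CWR22RV1 library the log2 ratio of the chaperone to its client was 1.99 ± 0.438 (SD, n = 3) in shControl and 0.860 ± 0.203 (SD, n = 3) in GALNT7 KD, without overlap. In DU145 cells the same ratio was -1.46 ± 0.125 and -1.65 ± 0.0719 (SD, n = 3), also without overlap. Per kb of exon the level of the chaperone was 13.8 to 24.7 times that of its client in shControl and 7.25 to 9.35 times in GALNT7 KD. In DU145 cells it was 1.46 to 1.73 times in the OE control and 1.32 to 1.45 times in GALNT7 OE. These multiples, and the order in DU145 cells, depend on the length given to a gene. With the median length of protein-coding transcripts, C1GALT1C1 lay at 256 and C1GALT1 at 110 per kb in shControl. In GALNT7 KD they lay at 259 and 238 per kb. With the longest protein-coding transcript the shControl levels were 246 and 16.5. In DU145 cells C1GALT1 lay above C1GALT1C1 with the median length, at 1335 against 291 per kb in the OE control. In GALNT7 OE these levels were 1496 and 284.

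GCNT1 (ENSG00000187210, chr9:76419850-76651203, plus strand), the main core 2 branching enzyme outside mucin-secreting tissue, had 1385, 1363 and 1495 normalised counts in shControl and 600.4, 735 and 873 in GALNT7 KD. The lowest control library was well above the highest knockdown library. The log2 fold change was -0.96 (95% interval -1.28 to -0.63), called in limma with an adjusted p of 0.010, and it stayed called in all 16 alternatives, between -1.09 and -0.82. Exons of GCNT1 overlap those of PRUNE2 on the other strand. The range of PRUNE2 was 733 to 1578 in the control libraries and 567 to 1089 after knockdown, a log2 fold change of -0.47 that did not pass (limma adjusted p = 0.42), and whether counting used strand is not given in the sources used here. In DU145 cells GCNT1 stood at 219.5, 354 and 252 in the OE control and 283, 319 and 216 in GALNT7 OE, with overlapping groups and a log2 fold change of -0.0024 (95% interval -0.52 to 0.51, limma adjusted p = 0.99).

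GCNT3 (ENSG00000140297, chr15:59594875-59640239, plus strand), the branching enzyme of mucin-secreting epithelia, was near 0 in CWR22RV1 cells and detected in every DU145 library. In CWR22RV1 cells it was at 0, 0 and 0.916 in shControl and 4.83, 2.13 and 0 in GALNT7 KD, at most a few reads per library and under the filter. DU145 cells had 506, 464 and 502 normalised counts in the OE control and 562, 525 and 584 in GALNT7 OE. Every altered library lay above every control, and the log2 fold change was 0.18 (95% interval -0.0078 to 0.37) and did not pass (limma adjusted p = 0.11).

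B3GNT3 (ENSG00000179913, chr19:17794828-17813082, plus strand), the core 1 extending enzyme that builds the scaffold for sulfated and fucosylated ligands, was the 1 enzyme called in DU145 cells. It had 112, 191 and 106 normalised counts in the OE control and 52.1, 61.0 and 44.1 in GALNT7 OE. The highest altered library lay below the lowest control. The means were 136 ± 47.7 and 52.4 ± 8.47 (SD, n = 3), 2.60-fold lower with GALNT7 OE. The log2 fold change of -1.32 (95% interval -1.94 to -0.70) was called in limma with an adjusted p of 0.0063 and stayed called in all 14 alternatives, between -1.48 and -1.05. In CWR22RV1 cells it had 7.47, 5.31 and 4.58 normalised counts in shControl and 1.93, 6.40 and 1.93 in GALNT7 KD, overlapping and not tested.

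ST3GAL1 (ENSG00000008513, chr8:133454848-133571940, minus strand), which caps the galactose of core 1 with sialic acid, had 8334, 9510 and 8533 normalised counts in shControl and 12781, 12435 and 12248 in GALNT7 KD. All 3 knockdown libraries lay above all 3 controls. The means were 8792 ± 629 and 12488 ± 270.4 (SD, n = 3), a ratio of 1.42. The log2 fold change of 0.51 (95% interval 0.38 to 0.64) was called in limma with an adjusted p of 0.0041 and stayed called in all 16 alternatives. In DU145 cells ST3GAL1 had 195, 224 and 259.9 normalised counts in the OE control and 498, 174 and 264 in GALNT7 OE. GALNT7 OE replicate 1 stood apart from the other libraries, the groups overlapped and the log2 fold change of 0.34 (95% interval -0.51 to 1.19) did not pass (limma adjusted p = 0.48). Without that library it was -0.068.

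ST3GAL2 (ENSG00000157350, chr16:70375978-70439237, minus strand), which performs the same capping step, had 106, 161 and 167 normalised counts in shControl and 250.4, 234 and 235 in GALNT7 KD. The groups did not overlap, but the log2 fold change of 0.75 (95% interval 0.31 to 1.20) lay just outside the threshold (limma adjusted p = 0.055). For ST3GAL2 the DU145 libraries had 1482, 1371 and 1336 in the OE control and 1472, 1259 and 1172 in GALNT7 OE, overlapping, with a log2 fold change of -0.11 (95% interval -0.33 to 0.12, limma adjusted p = 0.40).

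The 3 ST6GALNAC enzymes gave no call in either line. ST6GALNAC4 (ENSG00000136840, chr9:127907886-127917038, minus strand) had 86.8, 35.4 and 62.3 normalised counts in shControl and 132, 77.9 and 169 in GALNT7 KD, and the groups overlapped. Its log2 fold change of 1.05 was close in size to that of C1GALT1 but had a wider 95% interval, 0.097 to 2.00 (limma adjusted p = 0.16). The DU145 values of ST6GALNAC4 were 892, 1133 and 1035 in the OE control and 1017, 791 and 744 in GALNT7 OE, a log2 fold change of -0.27 (limma adjusted p = 0.17) that became -0.40 and passed (limma adjusted p = 0.036) without GALNT7 OE replicate 1. ST6GALNAC2 (ENSG00000070731, chr17:76565379-76586956, minus strand) had 12.1, 3.54 and 4.58 in shControl and 11.6, 8.53 and 5.78 in GALNT7 KD, too few reads to resolve a change (95% interval -0.82 to 1.68). In DU145 cells it had 77.3, 116 and 184 in the OE control and 72.2, 98.0 and 61.9 in GALNT7 OE, a log2 fold change of -0.63 (95% interval -1.42 to 0.16, limma adjusted p = 0.17) that was -0.31 without OE control replicate 3 and -0.93 (limma adjusted p = 0.0501) without OE control replicate 1. Its exons overlap those of AC015802.6 on the same strand, so that reads of the pair can be split between them. ST6GALNAC1 (ENSG00000070526, chr17:76624761-76643838, minus strand), the sialyl-Tn synthase, was barely detected: it had 4.67, 2.65 and 2.75 normalised counts in shControl, 0, 1.07 and 0 in GALNT7 KD, and at most 1.05 in any DU145 library, and it was tested in neither line.

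**Figure D2:**
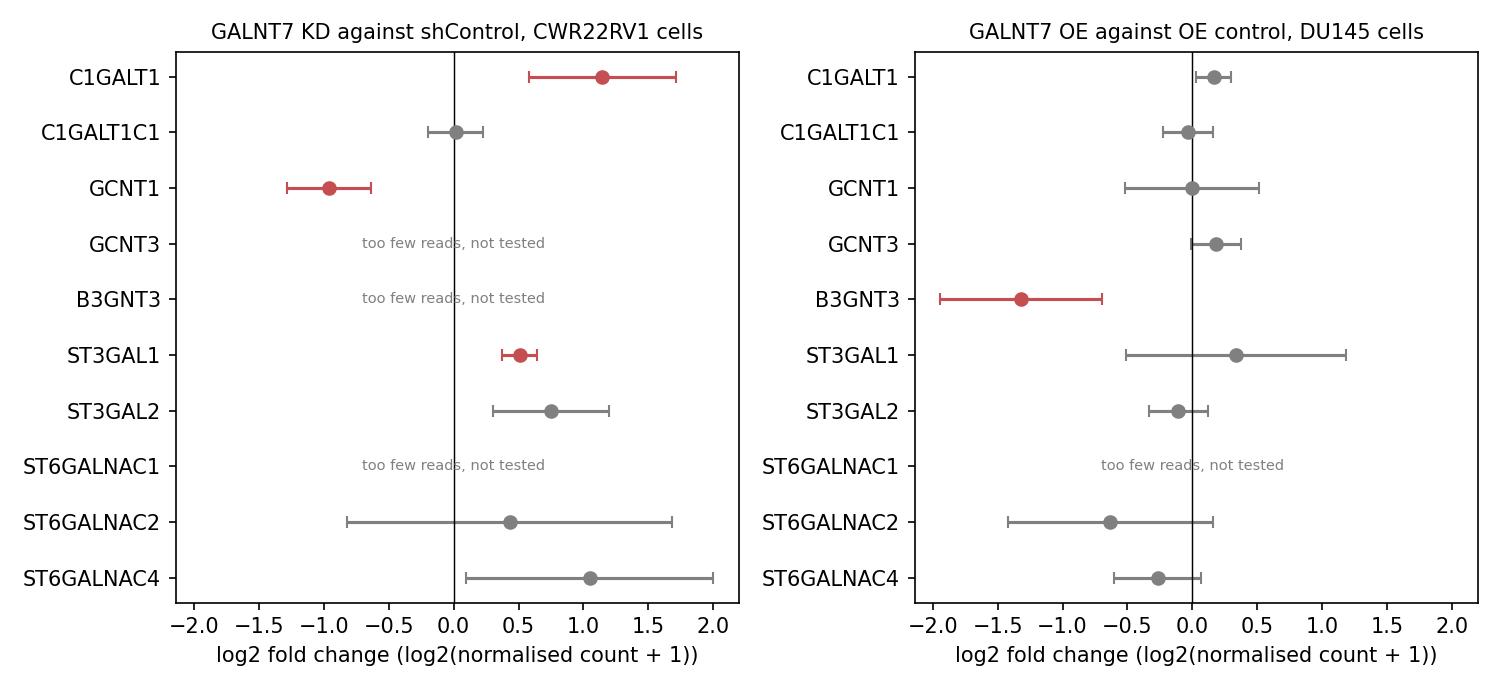
Log2 fold change of each enzyme with its 95% interval, GALNT7 KD against shControl (left) and GALNT7 OE against OE control (right), n = 3 per group. Red points had a limma adjusted p under 0.05: C1GALT1 (1.15), GCNT1 (-0.96) and ST3GAL1 (0.51) on the left and B3GNT3 (-1.32) on the right; enzymes under the filter carry no point.

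Counted by overlap alone, the groups were apart for 4 of the 7 enzymes tested in knockdown (C1GALT1, ST3GAL1 and ST3GAL2 higher, GCNT1 lower), where 32.5% of all genes tested were apart (16.9% higher and 15.6% lower), and for 3 of the 9 tested in overexpression (C1GALT1 and GCNT3 higher, B3GNT3 lower), where 55.3% were (28.2% higher and 27.1% lower). For each of these genes the two-sided exact permutation test over its 6 libraries gave p = 0.1, the smallest that 3 libraries against 3 allow.

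The balance between enzymes that compete for core 1 was also followed within each library. ST3GAL1 closes core 1 by sialylation and GCNT1 opens it to branching, and their log2 ratio was 2.63 ± 0.150 in shControl and 4.10 ± 0.301 in GALNT7 KD (SD, n = 3). The difference of 1.47 is a 2.76-fold rise in the ratio, without overlap, and both genes contributed to it. It combines 2 enzymes already called and adds no evidence of its own. In DU145 cells the same ratio was -0.26 ± 0.360 and 0.078 ± 0.863 (SD, n = 3), with overlap. The ratio of B3GNT3 to ST3GAL1 fell in DU145 cells from -0.77 ± 0.532 to -2.43 ± 0.876 (SD, n = 3) without overlap. The ratio of ST3GAL2 to ST3GAL1 overlapped in both lines, as did that of GCNT3 to GCNT1 in DU145 cells. These ratios are described without a test.

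**Figure D3:**
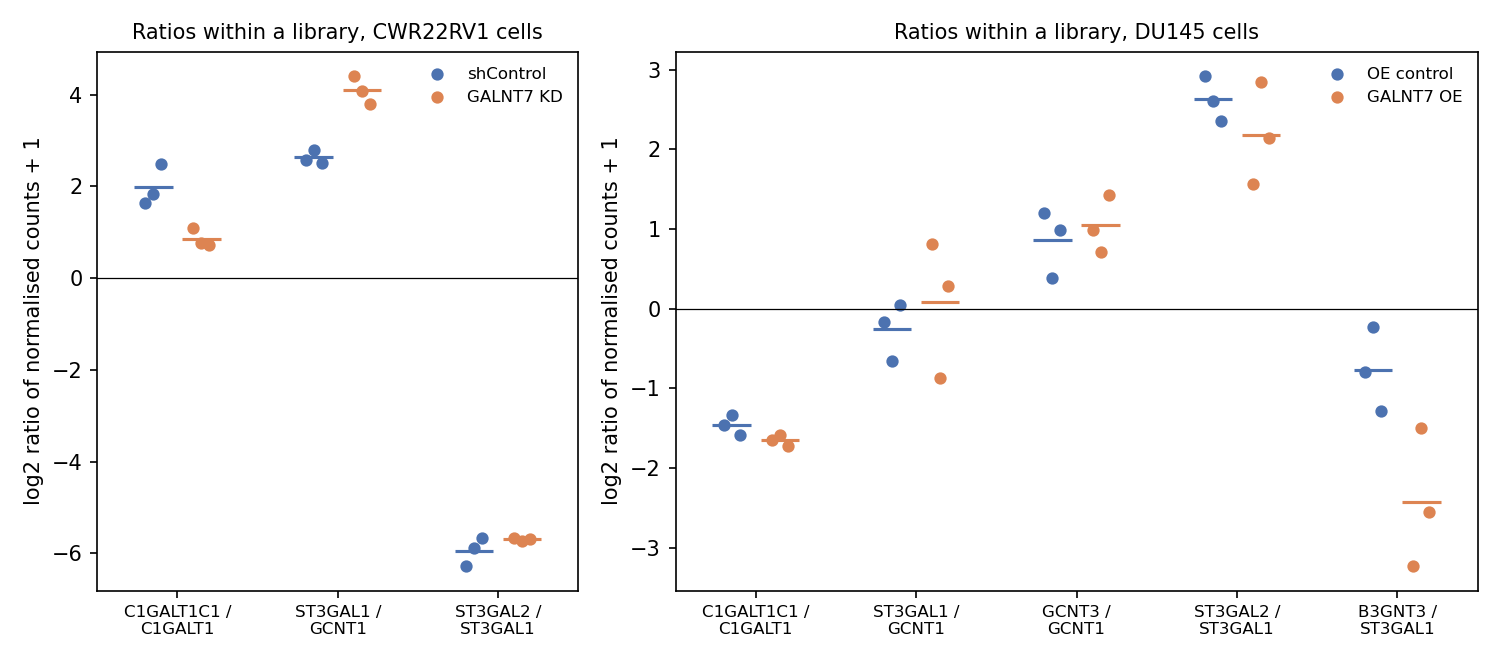
Log2 ratio of the normalised counts + 1 of pairs of enzymes within each library, for CWR22RV1 (left) and DU145 cells (right). Points are libraries (n = 3 per group) and bars are group means; the ST3GAL1 to GCNT1 ratio has a mean of 2.63 in shControl and 4.10 in GALNT7 KD.

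Levels of different genes were compared per kb of exon. In shControl cells ST3GAL1 stood first at 993 ± 71.1 normalised counts per kb (SD, n = 3), which was 69.7% of the summed level of the 10 enzymes, followed by C1GALT1C1 at 222 and GCNT1 at 153. ST6GALNAC4, ST3GAL2 and C1GALT1 came next at 23.4, 14.8 and 13.1, and the ranges of neighbours among these 3 overlapped. B3GNT3, ST6GALNAC2, ST6GALNAC1 and GCNT3 were at 2.51 or below. In GALNT7 KD cells the share of ST3GAL1 was 77.5%. DU145 cells had another order: in the OE control ST6GALNAC4 stood first at 388 ± 46.0 (SD, n = 3), 33.0% of the summed level, followed by C1GALT1C1 at 253, C1GALT1 at 159, ST3GAL2 at 143 and GCNT3 at 75.8. B3GNT3, ST6GALNAC2, GCNT1 and ST3GAL1 followed at 59.2, 40.6, 29.7 and 25.6, each overlapping its neighbour in range, and ST6GALNAC1 was last at 0.0974. Both orders depend on the length given to a gene. With the median length of its protein-coding transcripts in place of all its exons, 8 of 10 ranks changed in shControl and 9 of 10 in the OE control, where C1GALT1 moved to first place at 1335 per kb. With the longest protein-coding transcript, 4 of 10 ranks changed in shControl and 0 of 10 in the OE control. ST3GAL1 was first in both CWR22RV1 groups with each of the 3 lengths, and ST6GALNAC1 last in both DU145 groups.

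**Figure D4:**
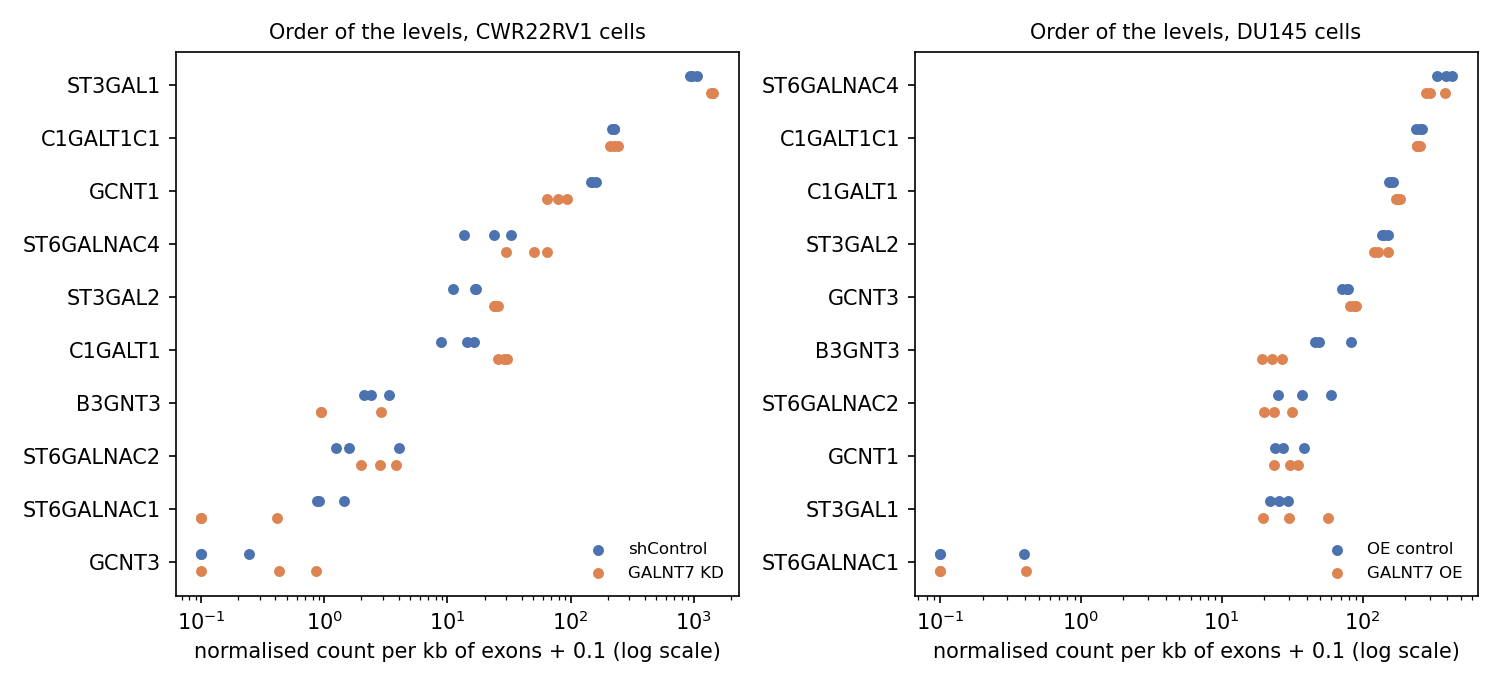
Normalised count per kb of exon + 0.1 in each library on a log axis, in the order of the control levels, for CWR22RV1 (left) and DU145 cells (right), n = 3 per group. ST3GAL1 is first in CWR22RV1 cells (993 in shControl) and second to last in DU145 cells (25.6 in the OE control); the order is that obtained with all exons as the length.

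The wider pathway was covered by 6 lists with 91 genes found in the files, for initiation, other cores and chains, other sialyltransferases, sialic acid supply, sugar donor supply, and sulfation and fucosylation. In knockdown 67 were tested, of which 5 were higher and 1 lower, a share of 8.96% beside 9.06% over all genes. The 1 lower was GALNT7 itself, which the design lowered and which is counted in that share. Among initiating enzymes GALNT10 and GALNT2 were higher by log2 fold changes of 0.44 and 0.40 (limma adjusted p = 0.021 and 0.0080). No other core, branch or chain enzyme of 12 tested passed. Of 12 other sialyltransferases tested 1 was called higher and 0 lower, a share of 8.33% beside 9.06% over all genes. The median log2 fold change of these sialyltransferases was 0.40, against -0.0063 over all genes. GFPT1, the first and rate-limiting enzyme of the hexosamine pathway that feeds GalNAc donor synthesis, rose from 1530 ± 74.9 to 2262 ± 238 (SD, n = 3). NPL, a sialic acid lyase under the mean set for naming genes and named after its value was seen, rose from 11.5 ± 3.12 to 44.1 ± 14.8 (SD, n = 3).

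In overexpression 71 of these genes were tested, of which 17 were higher and 18 lower, a share of 49.3% beside 43.5% over all genes. GALNT7, which the design raised, is counted among the higher genes. The list of 12 other sialyltransferases tested had 4 lower and 0 higher, a share called of 33.3%, under that over all genes. Over all genes 20.5% were called lower. The median log2 fold change of this list was -0.59, against -0.011 over all genes. The sialyltransferases past the threshold with a mean of at least 50 were ST6GALNAC5 (-1.88), ST8SIA4 (-0.96) and ST6GALNAC6 (-0.38). Of 14 other core, branch and chain enzymes 5 were higher and 5 lower, with B3GNT7, another N-acetylglucosaminyltransferase, at -1.85, B3GALT5 at 1.26 and B4GALT5, a galactosyltransferase, at -0.66. In donor and sialic acid supply, GNPNAT1 and UAP1 of the hexosamine pathway were higher by 1.28 and 0.77, CMAS, which activates sialic acid, by 0.68, while GFPT2 was at -0.61, the sialic acid esterase SIAE at -1.22 and the lysosomal sialic acid exporter SLC17A5 at -0.84. GALNT16 was at -2.02 and the sulfotransferase CHST2 at -0.76.

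Of the 91 genes, not all of them tested in both lines, ST6GALNAC6 and GALNT7 were called in both with opposite signs. The opposite calls of GALNT7 were set by the design. ST6GALNAC6, a sialyltransferase that acts mainly on glycolipids, had 581, 518 and 523 normalised counts in shControl and 745, 735 and 801 in GALNT7 KD, a log2 fold change of 0.49 (limma adjusted p = 0.017). In DU145 cells it had 1460.4, 1491 and 1653 in the OE control and 1129, 1226 and 1171 in GALNT7 OE, a log2 fold change of -0.38 (limma adjusted p = 0.0045). Over all genes tested in both lines 2.88% were called with opposite signs. GALNT2 and GALNT10 were higher in both, where 2.6% of all genes tested in both lines were called with the same sign.

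**Figure D5:**
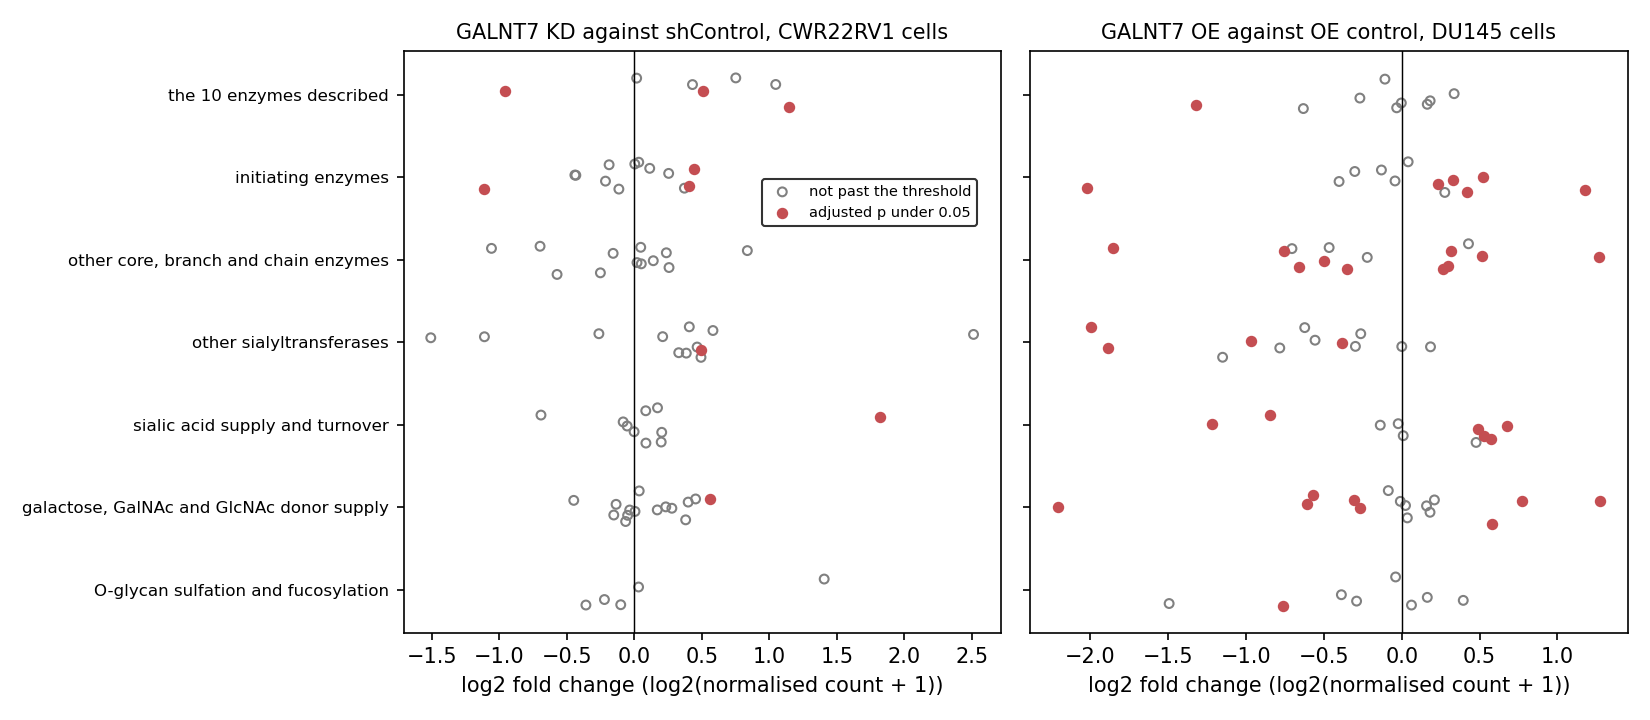
Log2 fold change of every tested gene of the 10 enzymes and of the 6 pathway lists, GALNT7 KD against shControl (left) and GALNT7 OE against OE control (right). Each point is a gene and filled red points had a limma adjusted p under 0.05. On the left 6 of 67 pathway genes are filled and on the right 35 of 71, GALNT7 included on each side.

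The genes whose pattern was most like that of C1GALT1 over the 12 libraries were ENSG00000235233, F2R and SEPTIN6, at distances of 0.576, 0.593 and 0.597, where the median of 11815 genes was 1.72. For B3GNT3 they were PLAT, ENSG00000276482 and GNG7 at 1.10, 1.10 and 1.26, where the median was 2.52. In CWR22RV1 cells B3GNT3 had only 1.93 to 7.47 normalised counts and was under the filter. The CWR22RV1 part of its distances therefore rests on few reads and allows no statement on a shared pattern in that line. The measure is the Euclidean distance between log2 values centred within each cell line.

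The cell lines were checked against their markers. KLK3 had 339 to 856 normalised counts in CWR22RV1 libraries and was at 0 in every DU145 library, and VIM had 32.9 to 98.9 in CWR22RV1 and 16225 to 19758 in DU145 libraries. KRT5, set as a DU145 marker, was at 0 in every library of both lines. Of the 7 CWR22RV1 markers 5 were called in knockdown (KLK2 and KLK3 among 3 higher, TMPRSS2 and FOLH1 lower), where 9.06% of all genes tested were called. The part of these markers in the changes of C1GALT1, GCNT1 and ST3GAL1 was not tested. In DU145 cells all 6 tested DU145 markers were called, 4 higher and 2 lower, where 43.5% of all genes tested were called. The summed level of the DU145 markers was 50106 to 50649.7 in the OE control and 61629 to 62111 in GALNT7 OE. Their part in the change of B3GNT3 was not tested. Of 7 markers of immune, endothelial, stromal and liver cells, CD3E was at 0 throughout and PTPRC at most 2.10, and the summed level was 99.8 to 157 for shControl, 70.3 to 131 for GALNT7 KD, 298 to 434 in the OE control and 66.5 to 160.4 in GALNT7 OE, where COL1A1 was lower. Recovered totals were 18364512 to 22264533 reads per library in CWR22RV1 and 21628718 to 24356910 in DU145 cells.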

How the data were processed

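RNA of CWR22RV1 and DU145 cells (12 libraries, 4 groups of 3 biological replicates) was sequenced from TruSeq stranded mRNA libraries. The authors deposited normalised counts, a signal in which the read number of each gene is scaled by 1 size factor for every library, in a separate table for each line. The submitters' processing notes name FastQC, Salmon, DESeq2, R 3.5.3 and hg38; index, annotation and strand setting are not given in the sources used here. Gene positions and lengths came from GENCODE release 29, where 94.4% of the identifiers were found. Each line was fitted by itself in R 4.3.3 with limma 3.58.1 (eBayes with trend) on log2(normalised count + 1), a scale that understates changes of genes with few reads. Genes with a mean of at least 5 were tested, and p-values were adjusted by Benjamini-Hochberg and called under 0.05.

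In all 12 libraries every value was a whole multiple of the library's smallest value above 0. In 2 DU145 libraries that smallest value is within 1% of 1 normalised count, and whole reads were taken as recovered only for the other 10. By that choice, edgeR 4.0.16 and DESeq2 1.42.0 were run on CWR22RV1 only. The enzymes and lists were chosen with earlier results of these data known. Named pathway genes are, per list and comparison, up to 3 called genes with a mean of at least 50 and the largest changes, and those called in both lines. Alternatives were other pseudocounts (0.5 and 5), filters, scalings, tests, the replicate block and each replicate left out. Both other gene lengths were added once the data had been seen, the longest transcript only after the median length had been found to change the order of levels. The tests were tried on simulated data. NEU1 was not analysed here. The values of 1 line marker are not reported here.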

Additional observations from a re-analysis of the deposited data

Results flagged for a closer look

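C1GALT1 was higher in every altered library of both lines, although GALNT7 was lowered in one and raised in the other. Its log2 fold change was 1.15 in GALNT7 KD against shControl CWR22RV1 cells and 0.16 in GALNT7 OE against OE control DU145 cells. It is listed here because, taken against the direction of GALNT7, the lines differed in sign in every library. The difference between the lines was not tested, since they were scaled separately and each carries its own direction of change. The knockdown value passed the threshold but lost it in 7 of 16 alternatives (limma adjusted p up to 0.088), and the overexpression value did not pass (0.055) except with a mean of at least 20 (0.046).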

How the results depend on the processing

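GCNT1 and ST3GAL1 in knockdown (16 alternatives) and B3GNT3 in overexpression (14) kept their direction and stayed called. C1GALT1 in knockdown kept its direction but lost the threshold in 7 of 16; the cause was not tested. Correlations of deviations between same-numbered libraries were -0.011, 0.075 and -0.0057 in knockdown and 0.043, 0.043 and 0.016 in overexpression. Every library correlated best with its own number in overexpression but not in knockdown. These correlations are close to 0, and the numbers are not taken as pairs. With the replicate block 1002 genes were called in knockdown in place of 1623 and C1GALT1 had a limma adjusted p of 0.057; without the eBayes trend these were 996 and 0.065. DESeq2 called 2666 genes, 12 pathway genes in place of 6, and ST3GAL2 (adjusted p = 0.013). With each replicate left out, 539 to 1336 genes were called in knockdown (555, 848, 686, 539 and 1026 without shControl replicates 1, 2 and 3 and GALNT7 KD replicates 1 and 2), with 3 to 6 pathway genes (3 without shControl replicate 1 or 3) and 2 to 3 of the enzymes. In overexpression the enzymes called were 1 to 2, with 2 without GALNT7 OE replicate 1 (ST6GALNAC4 added). With a mean of at least 20 they were also 2, C1GALT1 passing at a limma adjusted p of 0.046, and ST3GAL2 passed in knockdown at 0.048. Signs turned only for values far from the threshold. C1GALT1C1 in knockdown was -0.0045 after 75th percentile rescaling and -0.032 to 0.069 with a replicate left out; in overexpression it was -0.073 to 0.0045. GCNT1 in overexpression was 0.048 after quantile normalisation and -0.15 to 0.19 with a replicate left out, and ST3GAL1 in overexpression -0.068 to 0.69. The 75th percentile rescaling moved the median of all genes in overexpression from -0.011 to -0.11, and the called genes from 4290 higher and 3842 lower to 3380 and 4737. Levels per kb depend on gene length: 8 of 10 ranks in shControl and 9 of 10 in the OE control changed with the median transcript length, and 4 of 10 and 0 of 10 with the longest transcript, an alternative added after the former was seen. Enzymes with few reads (GCNT3, B3GNT3, ST6GALNAC1 and ST6GALNAC2 in CWR22RV1 cells) allow no statement on change.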
